A study of Drosophila melanogaster with 6 samples.

Results

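The genes described here encode the proteins of the mitochondrial ribosome of Drosophila melanogaster. They were taken as every probe set of the deposited expression table whose gene symbol is mRpL or mRpS followed by a number, which gave 75 probe sets for 71 of the 14535 genes named on the arrays. By symbol, 45 of these genes belong to the large subunit (mRpL, 47 probe sets) and 26 to the small subunit (mRpS, 28 probe sets). The subunit is read from the symbol throughout, and the place of each protein in the ribosome was not checked. The symbols alone chose them, with no filter on measured values, although earlier results of these data were known. The symbols mRpL34 and mRpL37 had no matching probe set and were not analysed here.

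The mitochondrial ribosome sits in the mitochondrial matrix and translates the few mRNAs made from mitochondrial DNA, nearly all of which encode core subunits of the respiratory chain and the ATP synthase. Its RNAs come from the mitochondrial genome, whereas all of its proteins are encoded in the nucleus, made in the cytosol and imported. Some of these proteins have counterparts in the bacterial ribosome, and others are particular to mitochondria. In Drosophila, mutations of these genes lower respiration, slow growth and in several cases kill the larva or embryo.

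The samples were RNA from whole flies of a y(1), w67c23(2) background at an age of 3 days (young age group) or 45 days (old age group), cultured at 20 °C. Each age group had 3 biological replicates, and the labels give each as 100 females and 100 males from cultures started with virgin flies. The study's methods also give 100 males and 100 females, from cultures started with virgin females and with males. Its results text instead describes females that were mated before culture. The columns of the table are called young_1, young_2 and young_3, and aged_4, aged_5 and aged_6, and these names are used below. Each sample was hybridized to 1 Affymetrix GeneChip Drosophila Genome 2.0 array, on which a probe set is a group of short probes for 1 transcript, and the authors' normalized values are on the log2 scale. The signal of a probe set depends on its probes, so levels are compared between samples and not between genes.

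The mixture of sexes given by the labels and by the study's methods was not seen in male marker genes, and the study's results text speaks of females. All 8 testis probe sets were under log2 4 in all 6 samples, and so were 9 of 10 probe sets for accessory gland proteins, a list chosen after the values were seen. The exception was Acp95EF, with values between 12.92 and 12.999. The array medians lay between 2.45 and 2.47, but 10446 to 10543 of the 18769 probe sets per sample were under log2 4. These medians thus lay near the floor and cannot show whether the samples were alike. No sample stood apart in the values of the mitochondrial ribosomal genes. Markers of tissues did differ with age. The summed signal of 10 eggshell probe sets was between 141714 and 146136 in the young samples, and was 71086 in aged_4, 23077 in aged_5 and 1218 in aged_6. In all 10, every old value was below every young value, but 0 had a false discovery rate (FDR, limma as below) under 0.05. The list chosen for flight muscle was not specific to it. It included up and wupA, which the study calls the fly's only troponin T and troponin I. The summed signal of the 14 probe sets on this list was 117527 to 134445 in young flies and 39036 to 60330 in old flies. Of these, 6 were lower and 0 were higher at an FDR under 0.05, and 3 had a higher mean in old flies. For 9 female germline probe sets the summed signal was 93992 to 102796 in young flies and 94903 to 99043 in old flies. Among these, 0 were lower and 1 was higher at an FDR under 0.05, and in 3 every old value was above every young value. For 7 fat body probe sets it was 71634 to 81797 in young flies and 51246 to 58876 in old flies, with 3 lower and 1 higher at an FDR under 0.05. All 4 gut probe sets had an FDR under 0.05, with alphaTry and betaTry lower and Npc1b and Npc2e higher in old flies. The part of these tissue differences in the values below was not tested, and in RNA of whole flies fewer cells of a type and less RNA per cell cannot be told apart.

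Nearly all of the mitochondrial ribosomal genes were measured well above the floor of the arrays in both age groups. Of the 75 probe sets, 71 had a mean of log2 6 or more in at least 1 age group (called bright here), and member values ranged from 1.94 to 13.88. The brightest were the probe set of mRpL13 that is also assigned to CG10602 (13.65 to 13.88 over the 6 samples), mRpS5 (13.62 to 13.75) and mRpS7 (13.54 to 13.78). The joint probe set carries the identifier FBgn0032721, whereas a separate probe set of mRpL13 carries FBgn0032720 and read 12.29 to 12.40. The joint signal may thus not be that of mRpL13. The 4 dim probe sets were those of mRpL48, which lay between 4.19 and 4.79, of mRpS18C, which lay between 1.94 and 2.12, and both probe sets of mRpS14. For mRpS14 and mRpS18C, which were under log2 4 in all samples, the arrays give no information on age.

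The first question was whether any of these genes differed by the criteria of the study's methods, which are a fold difference above 2, a p-value under 0.05 and a false discovery rate (FDR) under 0.15. With limma, a linear model that shares variance across probe sets, 1 of the 75 probe sets met these 3 criteria as lower in the old age group and 0 met them as higher. Among all 18769 probe sets tested, 2.96% were lower and 3.45% were higher by the same criteria.

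The gene that met them was mRpL2 (FBgn0036135), whose protein lies by the peptidyl transferase centre of the large subunit. Its log2 values were 9.49, 9.90 and 10.16 in the young samples and 8.89, 8.64 and 8.13 in the old samples. The highest old sample was below the lowest young sample, and aged_6 was the lowest of all. The means were 9.85 ± 0.34 (SD, n = 3) and 8.55 ± 0.39 (SD, n = 3), which differed by -1.29 on the log2 scale (standard error 0.27, FDR 0.0449, limma). The signed fold difference was -2.45, where the sign marks lower values in old flies. The 95% interval of the log2 difference ran from -1.998 to -0.588 and therefore covered differences both above and below 2-fold. The gene met the 3 criteria with each of the 6 samples left out, at log2 differences between -1.47 and -1.08. It is, however, close to the stricter limit of an FDR of 0.05 used below, with an FDR between 0.0469 and 0.134 when 1 sample was left out.

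The next largest fall was that of mRpL36, whose bacterial counterpart is a very small protein of the large subunit, and which was singled out here after its values were seen. Its values were 8.39, 8.15 and 8.59 in young flies and 7.85, 7.78 and 7.25 in old flies, and again the groups did not overlap and aged_6 was lowest. The log2 difference was -0.75 with a standard error of 0.21, and the FDR of 0.0948 in limma was not under 0.05. All other members except 1 probe set each of mRpS14 and mRpS11 had a 95% interval that lay inside a 2-fold difference in either direction. Such an interval was found for 71 of the 75 probe sets, and for 68 of the 71 bright ones (95.8%), against 78.1% of all 7913 bright probe sets on the arrays. These bright sets were not matched for signal.

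Since most differences were below 2-fold, a second rule was used, an FDR under 0.05 with no fold criterion. By this rule 12 of the 75 probe sets were lower in the old age group (16%) and 4 were higher (5.33%), while 59 did not pass. The shares among all probe sets tested were 5.82% lower and 6.91% higher. Many of the probe sets tested were at the floor of the array, and the 71 bright members are better set beside all bright probe sets. Of those members, 16.9% were lower and 5.63% were higher, against 12.5% lower and 14.8% higher among the 7913 bright probe sets. The share of members that fell was thus near that of other bright probe sets, and the share that rose was below it. These counts were sensitive to single samples. Leaving out aged_4, aged_5 or aged_6 gave 7, 4 or 5 lower probe sets, and leaving out young_2 gave 7. Each of aged_4, aged_5 and aged_6 left out gave 1 higher probe set.

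**Figure D1:**
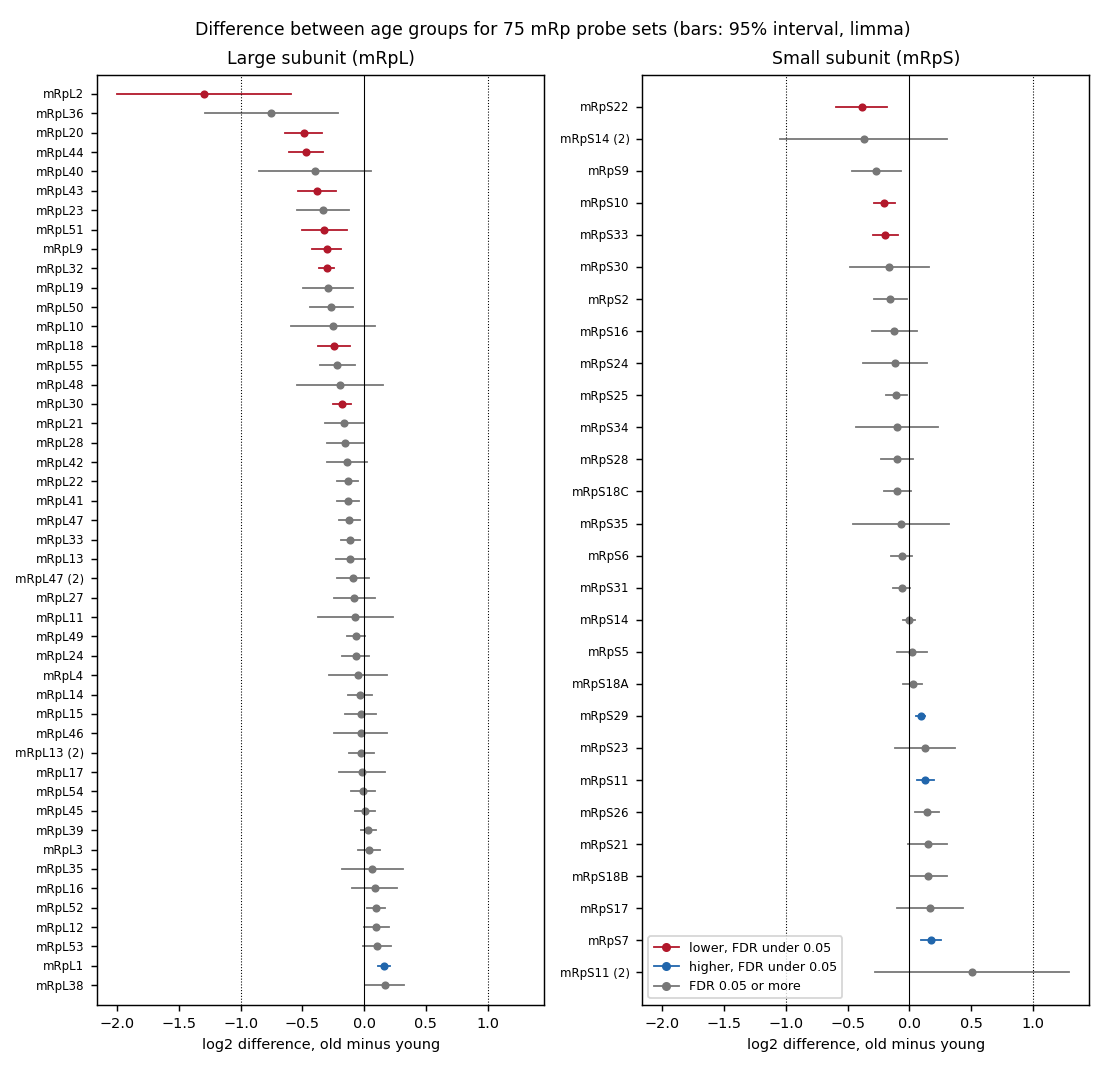
The log2 difference between the old and young age groups is plotted on the x axis for each of the 75 probe sets, with large subunit genes on the left and small subunit genes on the right, and bars give the 95% interval from limma. The dotted lines mark a 2-fold difference, a (2) marks the dimmer probe set of a gene, red points are lower and blue points are higher with an FDR under 0.05, and mRpL2 is the farthest from 0 at -1.29.

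Among the large subunit genes with bacterial counterparts, 6 of 30 probe sets fell with an FDR under 0.05, and 1 rose. Besides mRpL2 they included mRpL20 and mRpL32. In bacteria, the counterpart of mRpL20 binds the large ribosomal RNA early in assembly. Its values in flies (FBgn0036335) were 11.94, 11.92 and 11.86 in the young samples and 11.53, 11.35 and 11.36 in the old samples, which left a gap between the groups that was larger than the spread within either. The log2 difference was -0.49 (standard error 0.06, FDR 0.00934, limma).

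The protein of mRpL32 is cleaved by a mitochondrial protease before it joins the ribosome, as shown in yeast. Its 3 young values (FBgn0039835) were 12.10, 12.07 and 12.05, and its 3 old values were 11.75, 11.76 and 11.81. This was among the tightest of the differences, at -0.30 with a standard error of 0.02 and the lowest FDR of all members, 0.00328 in limma. The other 3 were mRpL9, mRpL18 and mRpL30. For mRpL9, a protein near the stalk base in bacteria, the values were 10.55, 10.45 and 10.60 in young flies and 10.26, 10.24 and 10.19 in old flies, a log2 difference of -0.30 (FDR 0.0163, limma). For mRpL18, whose bacterial counterpart binds the 5S RNA, they were 11.72, 11.63 and 11.80 against 11.51, 11.43 and 11.47, a difference of -0.25 (FDR 0.0397, limma). The difference of mRpL30 was -0.18 (FDR 0.0180, limma). In each of these genes, no old sample reached the lowest young sample.

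Large subunit genes that are particular to mitochondria fell in 3 of 17 probe sets, and 0 rose. One was mRpL44, whose protein carries a ribonuclease III-like fold and whose human counterpart is mutated in a form of infantile cardiomyopathy. Its values (FBgn0037330) were 12.27, 12.44 and 12.44 in the young samples and 11.89, 11.92 and 11.92 in the old samples. The old samples were close together (SD 0.02), and the log2 difference was -0.47 with a standard error of 0.05 (FDR 0.00779, limma). The others were mRpL43 and mRpL51, which have a related thioredoxin-like fold. Values of mRpL43 were 11.14, 11.08 and 11.29 in young flies and 10.82, 10.80 and 10.76 in old flies, a difference of -0.38 (FDR 0.0197, limma). Values of mRpL51 were 11.60, 11.73 and 11.78 against 11.49, 11.33 and 11.32, a difference of -0.32 (FDR 0.0489, limma). In mRpL51 the gap between the groups was narrow, with aged_4 only just below young_1. In the same group, mRpL45, which anchors the exit of the ribosome to the inner membrane in mammals, and mRpL54 had the smallest differences among bright members. The 95% interval was -0.07 to 0.09 for mRpL45 and -0.11 to 0.09 for mRpL54.

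The small subunit had 3 probe sets that fell and 3 that rose. The largest fall was that of mRpS22, a protein particular to mitochondria whose human counterpart is mutated in a mitochondrial disease of infants. Its values (FBgn0039555) were 10.88, 10.82 and 11.09 in young flies and 10.51, 10.60 and 10.52 in old flies, a log2 difference of -0.39 with a standard error of 0.08 (FDR 0.0404, limma). All 3 old samples were below all 3 young samples. The small subunit protein mRpS33, also particular to mitochondria, differed by -0.19 (FDR 0.0368, limma). The remaining probe set (FBgn0038307) is assigned to both mRpS10, a protein of the head of the small subunit, and CG34316. It read 12.22, 12.24 and 12.21 in young flies and 12.06, 12.05 and 11.95 in old flies, a difference of -0.20 (FDR 0.0210, limma). A separate probe set of CG34316 carries another identifier, FBgn0085345, and read between 2.49 and 2.72 in 5 samples and 6.75 in young_3.

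The 4 probe sets that rose did so by small amounts. The largest of these differences was that of mRpS7, which binds the small ribosomal RNA near the decoding region. Its values (FBgn0032236) were 13.54, 13.64 and 13.55 in young flies and 13.75, 13.78 and 13.72 in old flies, a log2 difference of 0.17 with a standard error of 0.03 (FDR 0.0289, limma). For mRpL1, a protein of the mobile stalk by which spent tRNAs leave, the values (FBgn0037566) were 12.63, 12.63 and 12.59 in young flies and 12.76, 12.80 and 12.76 in old flies, a difference of 0.16 (FDR 0.00840, limma). It was the only large subunit gene that rose with an FDR under 0.05. The protein of mRpS29 binds GTP and is known in human cells as death-associated protein DAP3. Its values (FBgn0034727) were 12.08, 12.07 and 12.11 against 12.18, 12.18 and 12.17, a difference of only 0.09 that exceeded a very small spread (FDR 0.0146, limma). With a trended and robust variance prior, 1 of the 4 probe sets that rose still had an FDR under 0.05, and it was mRpS7. Calls of falls were lost with this prior too, and 8 of all 16 calls remained. With newly called members included, 11 had an FDR under 0.05, of which 10 were lower. Among the falls, the FDR was then 0.0757 for mRpL9, 0.0653 for mRpL18 and 0.0648 for mRpS10 (limma).

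The fourth was 1 of a pair of probe sets for mRpS11 (FBgn0038474), a protein of the platform of the small subunit, and the pair gave different calls. The brighter probe set read 12.71, 12.64 and 12.63 in young flies and 12.78, 12.77 and 12.82 in old flies, a difference of 0.13 (FDR 0.0401, limma). The dimmer one read 10.12, 9.92 and 9.18 in young flies and 10.03, 10.13 and 10.58 in old flies. Its difference of 0.51 was the largest positive value of all members, but young_1 lay above aged_4 and the FDR was 0.467. The wide spread, with an SD of 0.50 among the young samples and 0.30 among the old, set this probe set apart from most others.

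**Figure D2:**
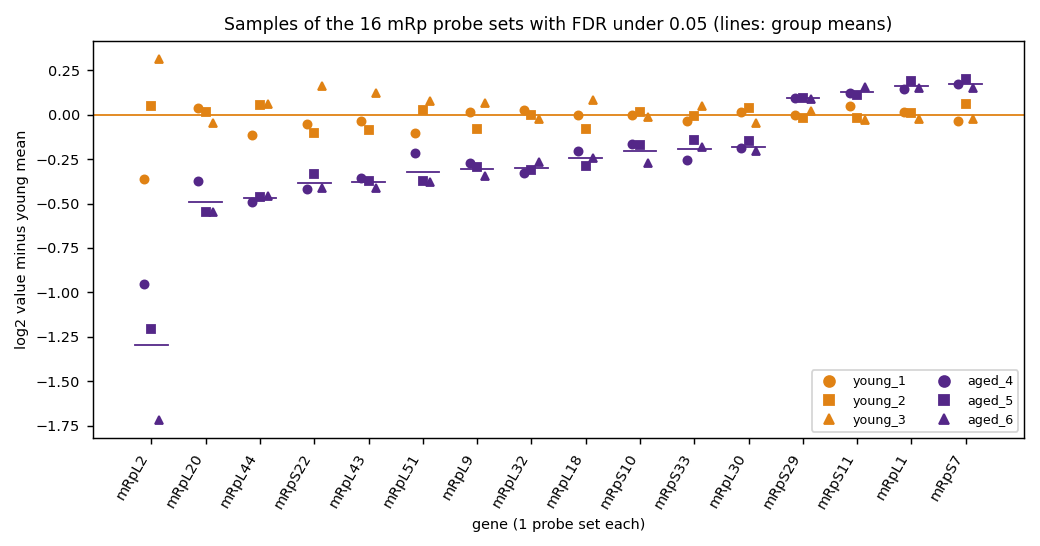
Each point is 1 sample, plotted as its log2 value minus the mean of the 3 young samples on the y axis, for the 16 probe sets with an FDR under 0.05 on the x axis, and purple lines give the mean of the old samples. The old samples of mRpL2 are spread between 8.13 and 8.89, whereas those of the genes from mRpL20 on lie close together.

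Fits that each left out 1 of the 6 samples gave a measure of how firmly these 16 calls stood. The probe sets of mRpL20, mRpL44, mRpL32 and mRpL1 kept an FDR under 0.05 in 6 of 6 such fits. That of mRpL9 kept it in 4, those of mRpL43 and mRpS29 in 3, and those of mRpL51, mRpS10 and mRpL30 in 2. The probe sets of mRpL2, mRpS22, mRpL18, mRpS11 and mRpS7 kept it in 1 fit, and that of mRpS33 in 0. Each such fit has fewer samples than the full one.

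A count that does not depend on the variance model is the number of probe sets whose age groups do not overlap. All 3 old values were below all 3 young values in 29 of the 75 probe sets, and all were above in 8, while the groups overlapped in 38. The shares among all probe sets tested were 12.6% lower and 16.1% higher. Among bright members, 39.4% did not overlap with old lower, against 23.9% of all bright probe sets. In the other direction it was 11.3% of members against 30.6%. With 3 samples against 3, an exact 2-sided permutation test of a single gene cannot give a p-value below 0.1. At an unadjusted p under 0.05 in limma, 26 members were lower and 8 were higher, and all of these were bright. They made up 36.6% and 11.3% of the bright members, against 21.5% and 27.7% of all bright probe sets, and 10.5% and 13.6% of all probe sets tested.

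The members as a whole were slightly lower in old flies. The log2 difference was negative in 54 probe sets and positive in 21, with a median of -0.097, beside 0.0008 over all 18769 probe sets tested. Over the 71 bright members it was negative in 50 and positive in 21, with a median of -0.091, beside 0.036 over the 7913 bright probe sets. Taken by sample against the young means, the median over the members was -0.097 in aged_4, -0.072 in aged_5 and -0.097 in aged_6. The young samples lay at 0.009, -0.001 and -0.013, so the old samples were all below them. The sample aged_6 was the lowest of the 3 old samples in 37 of the 75 probe sets, aged_4 in 24 and aged_5 in 14.

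The spread around that median was narrow beside that of other bright probe sets, which were not matched to the members for signal. In single samples, 49 to 157 of the 7913 bright probe sets were under log2 4, against 0 of the 71 bright members. The part of signal in the narrower spread was not tested. The median absolute difference was 0.13 on the log2 scale for the 71 bright members and 0.21 for all bright probe sets. A difference over 0.3 in either direction was found for 16.9% of bright members and 38.2% of bright probe sets. Replicates of the bright members were also closer to each other, with a median SD of 0.079 in young and 0.051 in old flies beside 0.123 and 0.073. Over all probe sets tested, most of them not bright, the median absolute difference was 0.017, the median SDs were 0.027 and 0.021, and 19.8% differed by over 0.3.

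**Figure D3:**
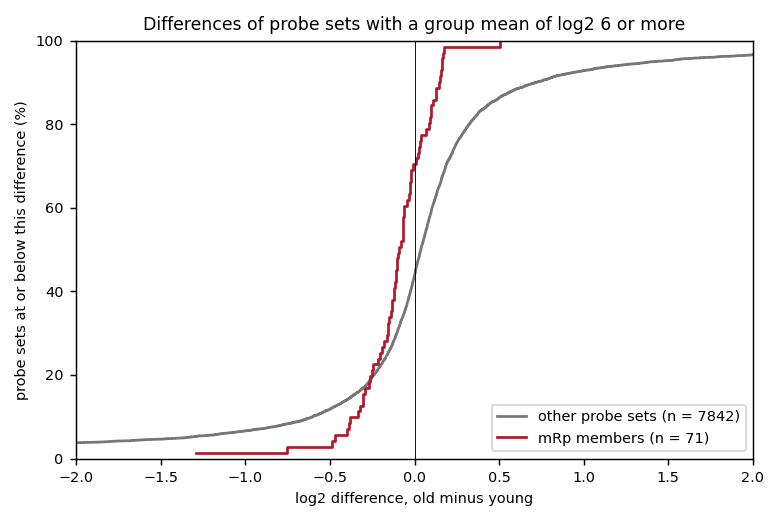
The y axis gives the percentage of probe sets at or below each log2 difference (old minus young) on the x axis, for bright probe sets (a mean of at least log2 6 in 1 or both age groups). The curve of the 71 members is steeper than that of the other probe sets, and its middle lies at -0.091, left of 0.

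Large and small subunit genes, as named by their symbols, were described separately. In the large subunit the difference was negative in 37 of 47 probe sets, with a median of -0.112, and the old samples read -0.118, -0.084 and -0.135 against the young means. In the small subunit it was negative in 17 of 28, with a median of -0.065, and the old samples read -0.079, -0.028 and -0.087. Genes with a bacterial counterpart (48 probe sets) had a median of -0.094, with 7 lower and 3 higher at an FDR under 0.05. Those particular to mitochondria (27 probe sets) had a median of -0.102, with 5 lower and 1 higher. Neither division was tested.

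Some probe sets are assigned to more than 1 gene. Of the 4 joint probe sets, those shared by mRpL13 with CG10602, by mRpL53 with CG33155 and by mRpS14 with CG32533 are assigned to genes that overlap in the RefSeq annotation, and that of mRpS10 and CG34316 to genes that are close neighbours. For mRpL13 a probe set of its own read 12.29 to 12.40 over the 6 samples, a log2 difference of -0.02, and the joint one differed by -0.11 (FDR 0.237, limma). For mRpL53 there is only the joint one, at 0.11 (FDR 0.231, limma). The joint probe set of mRpS14 carries the identifier of CG32533 and read 3.41 in young_1 and 2.45 to 2.58 in the other samples. The 2 probe sets of mRpL47 differed by -0.12 and -0.09, and neither had an FDR under 0.05. The calls with and without joint probe sets differed by little, with 10 lower and 4 higher members when these were left out.

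A pair of proteins of the mitochondrial small subunit have other symbols in flies. They are tko, whose mutant is sensitive to mechanical shock, and bonsai, whose mutant grows slowly. The values of tko were 11.20, 11.36 and 11.55 in young flies and 11.46, 11.31 and 11.20 in old flies, so the groups overlapped and the difference was -0.05. The values of bonsai were 12.71, 12.67 and 12.78 against 12.66, 12.63 and 12.61, a difference of -0.08 (FDR 0.243, limma).

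Genes that act with the mitochondrial ribosome were taken as short lists. Over all probe sets tested, 5.82% were lower and 6.91% were higher at an FDR under 0.05. Among the bright ones these shares were 12.5% and 14.8%. Whether the lists differed from these shares was not tested. Of 10 probe sets for mitochondrial translation factors, 0 had an FDR under 0.05 in limma, 1 had a value just above it, and the median difference was -0.004. That 1 was EfTuM, the elongation factor that delivers tRNAs to the ribosome, with 10.997, 11.15 and 11.38 in young flies, 10.61, 10.69 and 10.75 in old flies and a difference of -0.49 (FDR 0.0512). The list of factors that keep, copy and transcribe mitochondrial DNA or handle its RNA had 14 probe sets, of which 2 fell and 0 rose, with a median of -0.063. The transcription factor mtTFB2 read 9.96, 9.52 and 9.59 in young flies and 9.03, 8.84 and 9.08 in old flies, a difference of -0.71 (FDR 0.0391, limma). The transcription termination factor mTTF differed by -0.25 (FDR 0.0172, limma). Of 5 probe sets for mitochondrial aminoacyl-tRNA synthetases and their relative Slimp, 1 fell and 1 rose. The phenylalanyl-tRNA synthetase Aats-phe-m went from 9.84, 9.52 and 9.65 to 8.79, 8.95 and 9.01, a difference of -0.76 (FDR 0.0134, limma). Slimp, a paralog of the mitochondrial seryl-tRNA synthetase that does not charge tRNA, went from 9.22, 9.01 and 9.28 to 9.71, 9.66 and 9.77, a difference of 0.54 (FDR 0.0178, limma).

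The 2 gene lists most like the mitochondrial ribosome were the cytosolic ribosome and the enzymes that contain its products. For cytosolic ribosomal proteins, 11 of 110 probe sets were lower and 2 were higher at an FDR under 0.05, and the median difference was -0.007. For the nuclear subunits of the respiratory chain and the ATP synthase, 61 of 97 probe sets were lower and 0 were higher at an FDR under 0.05, 8 were lower by the 3 criteria, and the median was -0.373. Against the young means, the old samples read -0.310, -0.372 and -0.407 for this list. The largest of its falls with an FDR under 0.05 was that of ND-18, a subunit of complex I, which went from 9.43, 9.46 and 9.22 to 7.72, 7.54 and 7.16. The mitochondrial ribosomal genes, with 12 of 75 lower and a median of -0.097, lay between the 2 lists in both measures. Differences between lists were not tested.

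**Figure D4:**
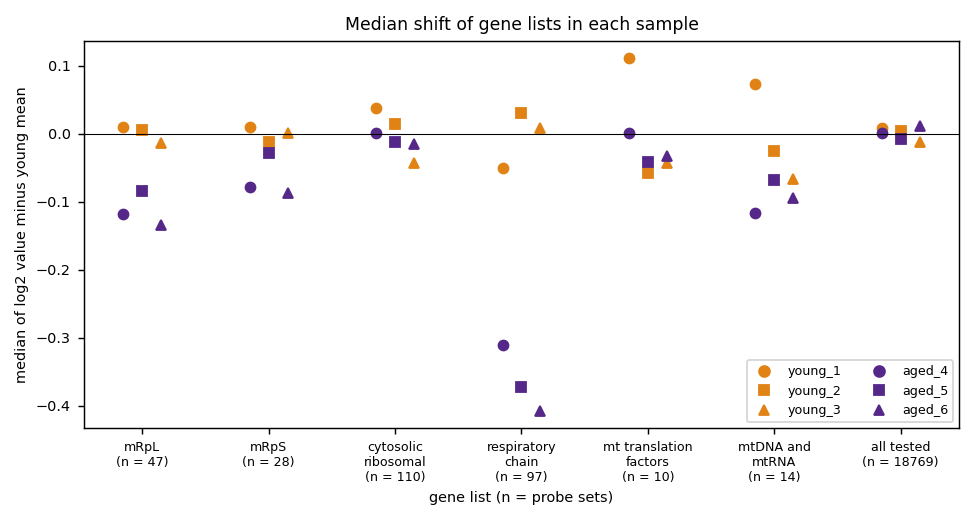
For each gene list on the x axis, the y axis gives the median over its probe sets of the log2 value minus the mean of the 3 young samples, with 1 point per sample. The old samples lie between -0.310 and -0.407 for the respiratory chain and ATP synthase, and between -0.028 and -0.135 for the 2 subunits of the mitochondrial ribosome.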

How the data were processed

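RNA of 6 samples of whole flies was amplified and hybridized to 6 arrays, 3 per age group. According to the methods, the authors normalized the scans with GCRMA in Partek Genomics Suite (version 6.5 per the processing notes), and the deposited values are log2 values per probe set. GCRMA makes the arrays alike in distribution, although the deposited values per probe set are not identical in it. Differences are therefore relative to the other transcripts, and a change in total mRNA cannot be seen. No genome build or counts are given, and the number of arrays limits the precision. Of 18952 probe sets, 183 controls were left out and 18769 were tested with limma 3.58.1 in R 4.3.3, with age group as the only term and Benjamini-Hochberg adjustment over all of them. The fit was tested on simulated data first. Gene symbols come from the table and were matched to RefSeq names (all 71 current). Genes with a bacterial counterpart were assigned from general knowledge of the ribosome. The members and gene lists were chosen with earlier results of these data known. Members described in full were those called by the 3 criteria, the 10 largest falls and 5 largest rises with an FDR under 0.05, the 3 brightest, dimmest and least changed, and genes whose probe sets disagreed. The alternatives were the methods' t-test, other variance priors, array weights, scaling, floors, filters and leaving out each sample.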

Additional observations from a re-analysis of the deposited data

How the results depend on the processing

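The counts by the 3 criteria were 1 lower and 0 higher under each alternative tried. No named gene with an FDR under 0.05 changed direction. Of the named genes without such an FDR, 4 with differences close to 0 did. The log2 difference of mRpL45 was -0.033 with array weights, -0.021 after renewed quantile normalization and -0.018 to 0.032 when 1 sample was left out. That of mRpL54 was -0.032 to 0.024 when 1 sample was left out. That of the brighter mRpS14 probe set was 0.011 with array weights, 0.042 after quantile normalization and -0.022 to 0.0053 when 1 sample was left out, and that of mRpS5 was -0.036 with array weights and -0.0067 to 0.064 when 1 sample was left out. The median log2 difference of the members was -0.111 after renewed quantile normalization and -0.079 with values under log2 4 raised to 4, and lay between -0.109 and -0.086 when 1 sample was left out. At an FDR under 0.05, lower members numbered 5 with the methods' t-test and 10 with a trended and robust prior. There were 22 with array weights, 5 with the floor of log2 4 and 16 with only probe sets at a group mean of log2 6 or more tested. When 1 sample was left out there were 4 to 11, and at an FDR under 0.15 in the full fit there were 24. Higher members numbered 2 with the t-test, 1 with a trended and robust prior, 6 with array weights and 2 with the floor. There were 2 with only probe sets at a group mean of log2 6 or more tested, and 1 to 3 when 1 sample was left out. At an FDR under 0.15 in the full fit, 6 were higher. The causes were not tested. Of the 16 calls, 7 remained with the t-test, 8 with a trended and robust variance prior and 5 without aged_5. No paired analysis was possible because the columns of the old age group carry other numbers than the labels. Dim probe sets, those of mRpS14 and mRpS18C, cannot show a difference at this signal.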
